A study of Mus musculus with 8 samples.

Results

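The tripartite motif (TRIM) genes were examined in the livers of mice given saline, lipopolysaccharide (LPS) or the Wnt secretion inhibitor LGK974. Members were the rows of the count table whose gene symbol begins with Trim followed by a digit, and 67 of 23282 rows qualified. They lie on 15 chromosomes. No member symbol stood out of genomic order in the table, although 579 other rows carried a symbol whose annotated position lay away from the genes of the rows around it. Dislocated symbols of this kind adjoined 5 members, and these were *Dhx9* beside *Trim55*, *Themis2* beside *Trim32*, *Il27* beside *Trim54*, *Gbp5* beside *Trim71*, and *Orm1* and *Sema7a* on either side of *Trim72*.

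TRIM proteins typically carry a RING domain, a B-box and a coiled coil, and many act as E3 ubiquitin ligases, the enzymes that pass ubiquitin from an E2 enzyme to a chosen protein. The part after the coiled coil differs between members and sets what each binds, such as a PRY-SPRY domain in the antiviral members, NHL repeats in others, or a PHD finger and bromodomain in the transcriptional co-regulators. Several members are induced by interferon and tune the sensing of nucleic acids and bacterial products. LPS, the outer-membrane glycolipid of Gram-negative bacteria, is recognised by Toll-like receptor 4, and interferon is part of the response to it. In the liver, hepatocytes, Kupffer cells and infiltrating leukocytes all respond.

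All mice were C57BL/6, and the labels describe them as male and 4 weeks old. The control group received saline and the endotoxemic group received 25 mg/kg LPS by intraperitoneal injection. The labels of the LGK974 group give the agent alone. The study's methods describe 60 mg/kg LGK974 given with 25 mg/kg LPS, in most experiments 2 h before it, and liver collection 6 h after LPS. No transgene or deletion was involved. RNA came from whole liver, so fewer cells of a type and less RNA per cell cannot be told apart.

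The 8 libraries were made with a method that reads the 3′ end of each transcript, so a count does not grow with transcript length. Endotoxemic libraries 3 and 4 held the same count as libraries 1 and 2 on every row and were counted once, which left 6 distinct libraries, 2 per group. Their totals ranged from 9142116 to 15222439 counts. At these depths 3 counts, taken as the smallest readable signal, correspond to 0.197 to 0.328 CPM, the count scaled to library size. Nothing in the labels says that libraries of a group came from separate mice, so p-values measure the spread between these samples, which may be technical. The libraries also split by sex-linked genes in a way the labels do not give. *Xist*, transcribed from the inactive X chromosome, had 1444 and 3115 counts in control, 1171 and 1884 in endotoxemic and 3 and 7 in LGK974 libraries. The Y-linked gene *Ddx3y* had 1755 and 1392 counts in the LGK974 libraries and 0 in the other 4. Sex-linked expression therefore goes with the LGK974 group in both comparisons that include it, and the effects of sex and LGK974 cannot be told apart.

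Of the 67 members, 32 (47.8%) had enough counts for the test and 35 did not. The 12 members at 0 in every library were *Trim29*, *Trim30e-ps1*, *Trim31*, *Trim40*, *Trim42*, *Trim43a*, *Trim50*, *Trim52*, *Trim54*, *Trim61*, *Trim75* and *Trim9*. In a library of these sizes, 0 counts allow a level up to the 3-count value given above. The other 23 untested members reached at most 17 counts, found for the membrane-repair gene *Trim72* in LGK974 library 1. Highest counts of 7 to 15 were found for *Trim43c*, *Trim67*, *Trim46*, *Trim59*, *Trim16*, *Trim62* and *Trim80*. *Trim36* and *Trim7* reached 4 counts and *Trim17* reached 6. *Trim10*, *Trim15* and *Trim38* reached 3 counts. *Trim34b*, *Trim43b*, *Trim63*, *Trim69* and *Trim71* reached 2, and *Trim55*, *Trim58*, *Trim60* and *Trim66* reached 1. None of the 8 members linked to muscle, microtubules or membrane repair, the 2 erythroid members or the 9 members of germ cells and early embryo passed the filter. The members that passed the filter came from the interferon-linked and other innate immune lists, the co-regulators, the NHL-repeat members and the remaining members. Each of these lists also held members that did not pass the filter.

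Summed over all members, TRIM genes took 431 and 454 CPM in control, 878 and 953 CPM in endotoxemic and 504 and 474 CPM in LGK974 libraries. Both endotoxemic libraries lay above the other 4, and the LGK974 libraries lay just above the control libraries. Most of that difference was carried by a gene cluster on chromosome 7. Its 9 rows (*Trim6*, *Trim34a*, *Trim12a*, *Trim34b*, *Trim12c*, *Trim30b*, *Trim30a*, *Trim30d* and *Trim30e-ps1*) span 317 kb at chr7:104218793-104535361 (GRCm38), and *Gm15133* is the only other row between them. The cluster summed to 44.3 and 60.1 CPM in control, 376 and 457 CPM in endotoxemic and 126 and 71.1 CPM in LGK974 libraries. Members outside the cluster summed to 387 and 394 CPM, 502 and 496 CPM, and 379 and 403 CPM in the same order. As a share of all TRIM counts, the cluster held 10.3% and 13.2% in control, 42.8% and 47.9% in endotoxemic and 24.9% and 15.0% in LGK974 libraries.

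**Figure D1:**
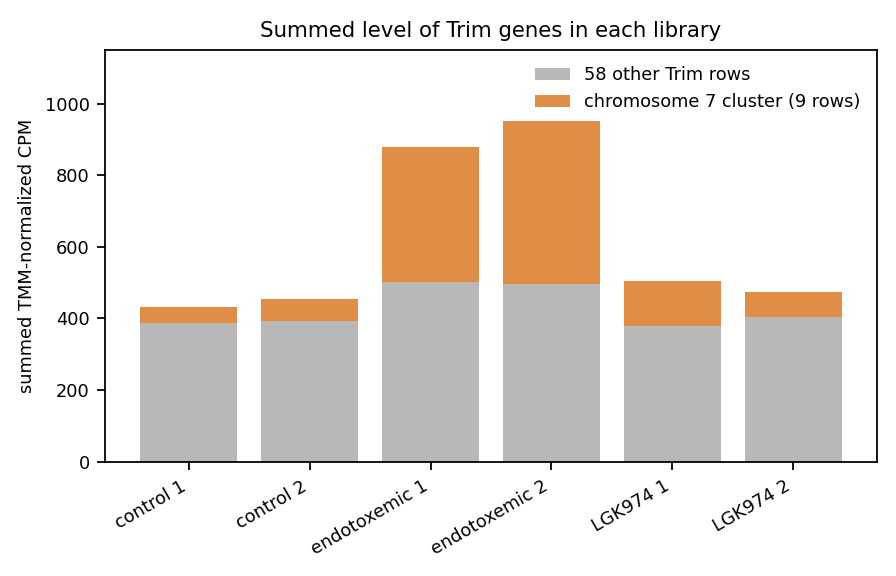
Summed level of the TRIM genes in each of the 6 distinct libraries, in CPM, split into the 9 rows of the chromosome 7 cluster and the 58 other members. The cluster reaches 376 and 457 CPM in the endotoxemic libraries and stays at or below 126 CPM elsewhere.

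*Trim30a* and *Trim30d* are neighbouring paralogues in this cluster, and the stretch before their start sites is shown because both genes passed the test in the same direction in all 3 comparisons and carry an interferon-type motif there. Promoters came from RefSeq (GRCm38.p6) and were available for 51 of 67 members, 25 of them tested. The search covered the 250 bases upstream of each start, on both strands, for an interferon-stimulated response element (ISRE)-like motif spelled GAAA, any 2 bases, GAAA, which reads TTTC, any 2 bases, TTTC on the other strand. It was found in 936 of 27025 genes (3.46%) and in 4 of the 51 members (7.84%), namely *Trim30a*, *Trim30d*, *Trim12c* and *Trim26*. The search found no match for *Trim6*, *Trim12a*, *Trim13*, *Trim21*, *Trim27*, *Trim30b*, *Trim34a*, *Trim39*, *Trim47* and *Trim56*, which were also higher in endotoxemic than in control livers. *Trim26* passed in no comparison. Whether the motif goes with the response was not tested. In the windows below, written 5′ to 3′ on the strand of the gene, capitals mark the motif.
Trim30a, chr7:104465200-104465249, minus strand: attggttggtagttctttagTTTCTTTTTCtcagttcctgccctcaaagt
Trim30d, chr7:104507861-104507910, minus strand: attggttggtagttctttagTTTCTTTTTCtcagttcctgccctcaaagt
Trim12c, chr7:104353350-104353398, minus strand: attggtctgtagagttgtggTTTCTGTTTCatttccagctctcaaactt
Trim26, chr17:36836966-36837015, plus strand: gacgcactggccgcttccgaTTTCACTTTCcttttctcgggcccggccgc

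The *Trim30a* and *Trim30d* windows are the same in all their letters. Over the whole upstream 250 bases, 227 of 255 aligned columns (89.0%) were identical between these genes, with a longest identical run of 118 bases. *Trim12c* and *Trim30a* matched in 54.8% of aligned columns. The motif began 36 bases before the start of *Trim30a*, 41 before *Trim30d* and 29 before *Trim12c*. RefSeq gives *Trim30a* a second start, and the 250 bases before that start (chr7:104446126-104446375) hold no match. In *Trim26* a second copy overlaps the first, and they begin 160 and 154 bases before the start. A gamma-activated site (GAS)-like motif, TTCNNNGAA, which is its own reverse complement, was found in 2197 genes (8.13%) and 4 members (7.84%): *Trim15*, *Trim31*, *Trim45* and *Trim46*. No GAS-like match overlapped the letters of the ISRE-like motif in any member. A match is a description of letters, and a window without one says nothing of the factors that bind there.

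The first comparison asked which TRIM genes differed between endotoxemic and control livers. By edgeR's quasi-likelihood test with Benjamini-Hochberg adjustment over 12701 genes, 15 of the 32 tested members were higher in the endotoxemic group (46.9%) and 4 were lower (12.5%). Over all genes tested, 20.4% were higher and 23.0% were lower. The median log2 fold change was 0.78 over the members and 0.01 over all genes. All 7 tested members of the chromosome 7 cluster were higher, with a median of 3.30, against 8 higher and 4 lower of 25 tested members elsewhere, with a median of 0.18. The second comparison asked what differed between the LGK974 and endotoxemic groups, where 1 member was higher (3.12%) and 8 were lower (25.0%), against 2.80% and 2.82% of all genes. The median was -0.35 over the members and 0.03 over all genes. Within the cluster 5 of 7 were lower, and elsewhere 1 was higher and 3 were lower of 25. The third comparison, LGK974 against control, gave 7 members higher (21.9%) and 1 lower (3.12%), against 16.4% and 17.7% of all genes. Each pair of comparisons shares a group of libraries, so the 3 are not independent of each other.

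The count of members lower in the LGK974 group rested on the endotoxemic libraries. Without endotoxemic library 2 none of the 8 passed, with an adjusted p of 0.0594 for *Trim30d* in edgeR, and without endotoxemic library 1 there were 4. The direction of all 8 stayed the same in both cases. Over all genes, 26 were lower without endotoxemic library 2 and 58 without library 1. The count of members higher in LGK974 against control was 3 without control library 1.

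**Figure D2:**
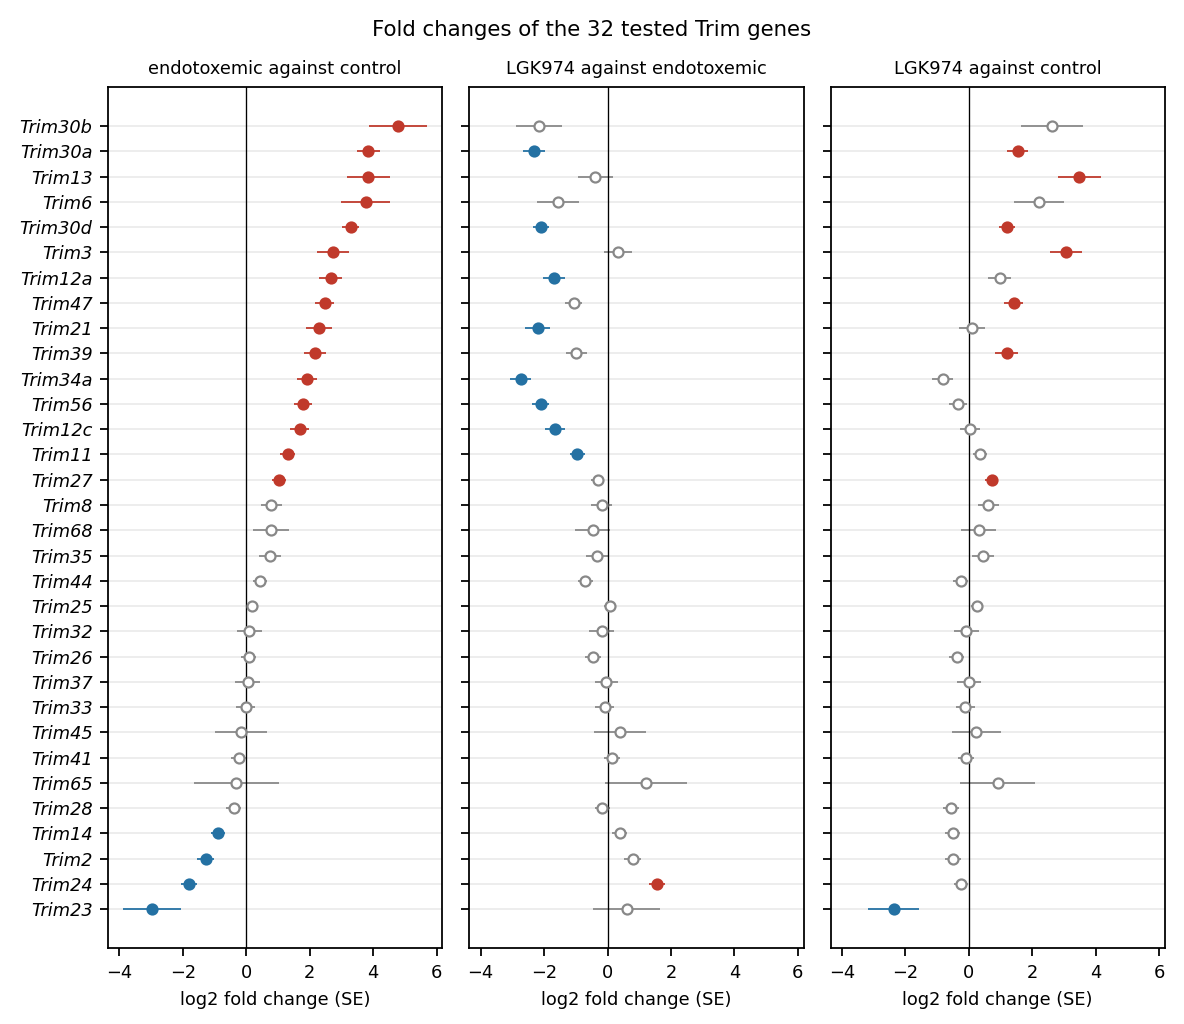
Log2 fold changes of the 32 tested TRIM genes in the 3 comparisons, with bars of 1 SE from the edgeR fit and filled points for an adjusted p under 0.05. *Trim30a* and *Trim30d* lie far to the right in the endotoxemic comparison (3.85 and 3.30) and to the left in LGK974 against endotoxemic (-2.31 and -2.10), and *Trim24* lies on the opposite sides (-1.81 and 1.56).

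*Trim30a* (chr7:104409025-104465193), a brake on Toll-like receptor signalling to NF-κB, showed the largest share of counts in the family under LPS. Its counts were 124 and 268 in control, 1650 and 2266 in endotoxemic and 735 and 436 in LGK974 libraries. The groups did not overlap, and the LGK974 libraries sat between the others. These counts correspond to 14.5 ± 4.25, 211 ± 43.5 and 42.5 ± 18.4 CPM (SD, n = 2 each). *Trim30a* rose by a log2 fold change of 3.85 (SE 0.36, adjusted p = 4.67e-05, edgeR) in endotoxemic livers. In the LGK974 group it was lower than in the endotoxemic group by -2.31 (SE 0.34, adjusted p = 0.00794, edgeR) and higher than in control by 1.54 (SE 0.34, adjusted p = 0.00723, edgeR). *Trim30a* accounted for 2.67% and 3.86% of TRIM counts in control, 20.5% and 25.3% in endotoxemic, and 11.0% and 6.23% in LGK974 libraries.

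*Trim30d* (chr7:104470014-104507849), its neighbour, had 60 and 140 counts in control, 646 and 711 in endotoxemic and 239 and 239 in LGK974 libraries. In CPM the groups again kept apart, at 7.36 ± 2.53, 73.1 ± 3.75 and 17.1 ± 1.32 (SD, n = 2 each). The log2 fold changes were 3.30 (SE 0.27, adjusted p = 2.4e-05, edgeR) for endotoxemic against control, -2.10 (SE 0.26, adjusted p = 0.00399) for LGK974 against endotoxemic and 1.20 (SE 0.26, adjusted p = 0.00714) for LGK974 against control. Without control library 1, the last call was lost for *Trim30d* (adjusted p = 0.07) and for *Trim30a* (adjusted p = 0.0792, edgeR). Of the 50-base stretches in the last 500 bases of the *Trim30d* transcripts, 16.7% also occur in a *Trim30a* transcript, while those of *Trim30a* and *Trim30b* occur in no other gene. The assignment of *Trim30d* reads is uncertain to that extent.

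*Trim30b*, a further copy, was nearly silent in control livers. It had 0 and 3 counts there, 30 and 32 under LPS and 8 and 13 in the LGK974 group. The ratio of its depth-scaled counts between endotoxemic and control groups was 29.7, with an exact 95% counting interval of 9.69 to 148. For LGK974 against control this ratio was 6.53 (1.95 to 34.2), and both intervals cover counting error only. All 3 control counts were in control library 2, so the size of this fold rests on that library, and the fitted log2 fold change of *Trim30b* under LPS was 4.02 without control library 1 against 4.78 with all libraries. Without control library 2 the control group is at 0 and gives no fold. The edgeR test called *Trim30b* in endotoxemic against control (adjusted p = 0.00286) and in neither comparison with the LGK974 group (adjusted p = 0.117 against endotoxemic and 0.0653 against control).

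*Trim12a* and *Trim12c* are mouse relatives of human TRIM5, which restricts retroviruses at the capsid. *Trim12a* had 65 and 124 counts in control, 411 and 424 in endotoxemic and 255 and 128 in LGK974 libraries. Its log2 fold change was 2.66 (SE 0.37, adjusted p = 0.000472, edgeR) under LPS and -1.69 (SE 0.35, adjusted p = 0.0284, edgeR) between LGK974 and endotoxemic livers. *Trim12c* had 162 and 310 counts, 470 and 584 counts, and 310 and 188 counts in the same order of groups. At CPM scale the endotoxemic libraries of *Trim12c* (51.3 and 62.2) stood clear of the control (15.0 and 20.3) and LGK974 libraries (23.4 and 12.7), which overlapped. *Trim12c* changed by 1.68 (SE 0.31, adjusted p = 0.00226, edgeR) and -1.65 (SE 0.31, adjusted p = 0.0196, edgeR) in those comparisons, and by 0.03 (2 SE interval -0.59 to 0.64) between LGK974 and control. Of the 3′-end 50-base stretches of *Trim12c*, 17.8% also occur in another gene, and 10.9% occur in *Trim5*, which has no row in the table. The calls in LGK974 against endotoxemic were lost for both genes when either endotoxemic library was left out, and for *Trim12a* also when either control library was, while the log2 differences over all single libraries left out stayed between -2.37 (without LGK974 library 1) and -1.23 for *Trim12a* and between -2.16 and -1.28 for *Trim12c*.

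*Trim34a* (chr7:104244457-104262234) had 53 and 67 counts in control, 152 and 174 in endotoxemic and 41 and 32 in LGK974 libraries. It was the cluster member whose LGK974 libraries (2.63 ± 0.657 CPM) fell below the control libraries (4.65 ± 0.382 CPM, SD, n = 2 each). Its log2 fold change was 1.92 (SE 0.31, adjusted p = 0.00111, edgeR) under LPS and -2.74 (SE 0.32, adjusted p = 0.00368, edgeR) in LGK974 against endotoxemic, the most negative among the members. The difference between LGK974 and control was -0.82 (adjusted p = 0.0815, edgeR). Its copy *Trim34b*, which shares 22.2% of the 3′-end stretches of *Trim34a*, had 2 counts in control library 1, 1 in endotoxemic library 2 and 0 in the other 4. *Trim6*, which builds unanchored ubiquitin chains in the interferon response, had 11 and 7 counts in control, 85 and 97 in endotoxemic and 75 and 15 in LGK974 libraries. The LGK974 libraries of *Trim6* lay at 5.66 and 1.02 CPM, the latter level with control library 1. *Trim6* was higher under LPS by 3.76 (SE 0.78, adjusted p = 0.00437, edgeR), while the difference between LGK974 and endotoxemic livers did not pass (-1.56, SE 0.67, adjusted p = 0.206). *Trim6* did pass there without the filter on low counts and without LGK974 library 1. Its fold under LPS was larger without control library 1, at a log2 value of 4.39.

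**Figure D3:**
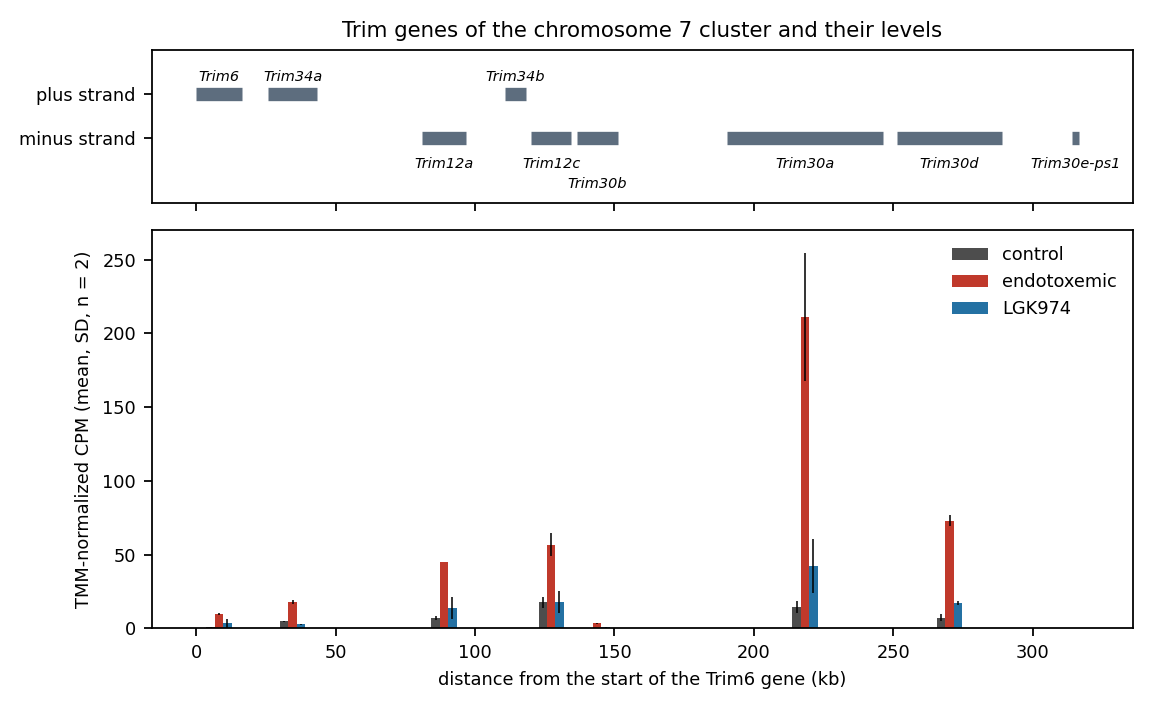
Map of the 9 genes of the chromosome 7 cluster by strand, with the distance from the start of *Trim6* in kilobases, above the mean level of each gene per group in CPM (bars start at 0, error bars are the SD of 2 libraries). The endotoxemic bar is the tallest at each of the 7 tested genes, and that of *Trim30a* reaches 211 CPM.

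Outside the cluster, the interferon-linked members moved in different directions. *Trim21* (chr7:102557921-102565486), the cytosolic antibody receptor, had 32 and 54 counts in control, 193 and 103 in endotoxemic and 55 and 42 in LGK974 libraries. Both endotoxemic libraries of *Trim21* (21.1 and 11.0 CPM) exceeded the other 4 (2.84 to 4.15 CPM). Its log2 fold changes were 2.29 (SE 0.41, adjusted p = 0.00185, edgeR) and -2.20 (SE 0.40, adjusted p = 0.0187, edgeR), the second a call lost without either endotoxemic library (adjusted p up to 0.186). *Trim56* (chr5:137105644-137116209), an antiviral member that acts on the cGAS and STING pathway, had 280 and 331 counts in control, 784 and 731 in endotoxemic and 181 and 358 in LGK974 libraries. That is 23.8 ± 3.08, 81.7 ± 5.39 and 18.9 ± 7.47 CPM (SD, n = 2 each), with the LGK974 libraries around the control range. *Trim56* changed by 1.78 (SE 0.28, adjusted p = 0.000924, edgeR) and then -2.11 (SE 0.28, adjusted p = 0.00586, edgeR). Its difference between LGK974 and control was -0.33 (2 SE interval -0.88 to 0.23).

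*Trim25*, which ubiquitinates the RNA sensor RIG-I, had 497 and 709 counts in control, 469 and 504 in endotoxemic and 676 and 885 in LGK974 libraries. Its mean levels of 46.2 ± 0.148, 52.4 ± 1.8 and 55.5 ± 6.27 CPM (SD, n = 2 each) gave a log2 difference of 0.18 (2 SE interval -0.2 to 0.56) under LPS. *Trim26*, a regulator of IRF3 whose promoter holds the motif shown above, had 178 and 312 counts, 163 and 200 counts, and 197 and 199 counts in the same order. The log2 difference of *Trim26* under LPS was 0.08 (2 SE interval -0.4 to 0.57). *Trim38* had 3 and 2 counts in the LGK974 libraries and 0 in the other 4. *Trim14*, an adaptor without a RING domain that works with the mitochondrial antiviral protein MAVS, was the single tested member of the list that was lower under LPS. It had 556 and 643 counts in control, 227 and 240 in endotoxemic and 365 and 562 in LGK974 libraries. *Trim14* was lower under LPS by -0.89 (SE 0.23, adjusted p = 0.0126, edgeR), a call lost without control library 1 or without either endotoxemic library. Across the 12 tested interferon-linked members, 9 were higher (75.0%, against 20.4% of all genes) and 1 was lower (8.33%, against 23.0%) under LPS. These 9 were the 7 tested members of the chromosome 7 cluster and *Trim21* and *Trim56*. Of the other interferon-linked members tested outside the cluster, *Trim14* was lower and *Trim25* and *Trim26* did not pass. In LGK974 against endotoxemic 7 were lower (58.3%, against 2.82%), 5 of them in the cluster. In LGK974 against control 2 were higher, and this 16.7% is near the 16.4% of all genes.

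**Figure D4:**
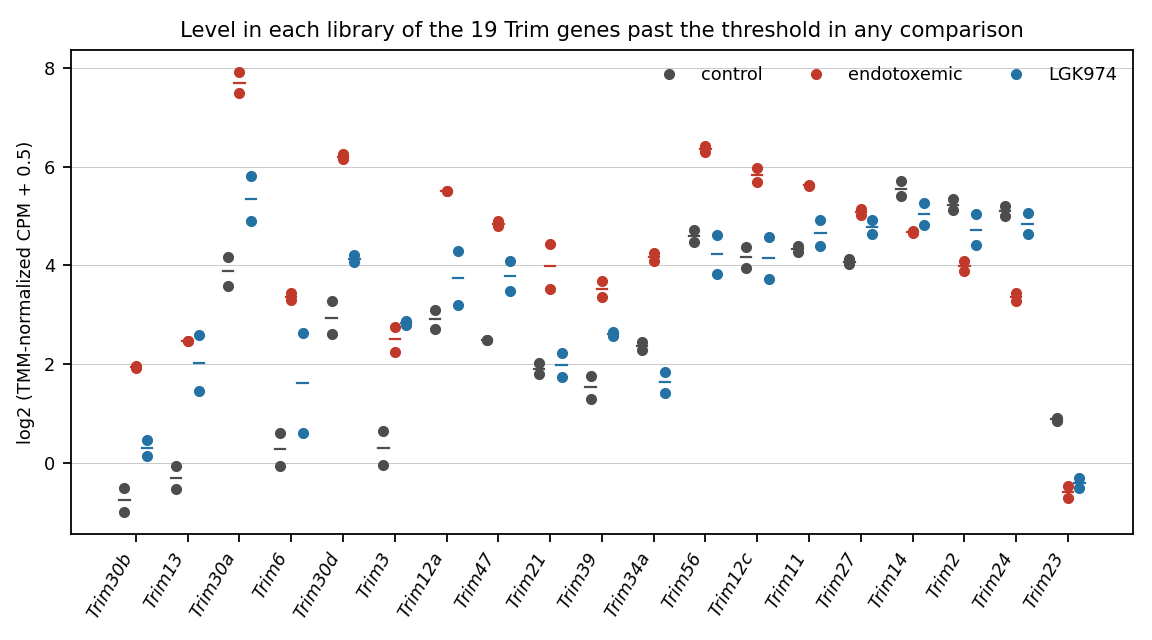
Level of the 19 TRIM genes that passed the test in at least 1 comparison, as the log2 of CPM plus a small constant given on the axis, with a point for each of the 6 distinct libraries and a line at each group mean. *Trim30a* and *Trim30d* separate by group, and *Trim24* is lowest in the endotoxemic libraries.

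Among the other regulators of innate signalling, 3 of 7 tested members were higher (42.9%, against 20.4% of all genes) and 1 was lower (14.3%, against 23.0%) under LPS. Between the LGK974 and endotoxemic groups 0 of the 7 passed in edgeR, against 2.80% higher and 2.82% lower of all genes, so that 0 of 7 is near the background. The smallest unadjusted p was that of *Trim39* (0.0168, adjusted p = 0.123, edgeR), at a log2 difference of -0.98. *Trim39* did not pass in DESeq2 either. *Trim13*, an endoplasmic reticulum ligase, had 2 and 7 counts in control, 46 and 47 in endotoxemic and 73 and 33 in LGK974 libraries. It was higher than control in the endotoxemic group (3.85, SE 0.68, adjusted p = 0.00186, edgeR) and in the LGK974 group (3.48, SE 0.68, adjusted p = 0.00419, edgeR). Without control library 2 these values of *Trim13* were 4.68 and 4.30, and the second was 2.69 without LGK974 library 1. The *Trim13* gene ends within the antisense transcript *Dleu2*, and whether counting used strand is not given in the sources used here. Of the 3′-end 50-base stretches of *Trim13*, 10.2% also occur in *Gm9359*. *Trim39* had 21 and 44 counts in control, 90 and 115 in endotoxemic and 72 and 85 in LGK974 libraries. The log2 fold changes of *Trim39* were 2.17 (SE 0.36, adjusted p = 0.00121, edgeR) under LPS and 1.20 (SE 0.36, adjusted p = 0.0288, edgeR) in LGK974 against control. *Trim27*, also called RET finger protein, had 170 and 260 counts, 294 and 328 counts, and 323 and 439 counts in the same order. *Trim27* rose by 1.03 (SE 0.22, adjusted p = 0.00454, edgeR) and 0.72 (SE 0.21, adjusted p = 0.0289, edgeR) in those comparisons. For LGK974 against control, the calls of *Trim27* and *Trim39* were lost without either control library and without endotoxemic library 2, and that of *Trim27* also without endotoxemic library 1 or LGK974 library 2. Under LPS, the call of *Trim27* was lost without control library 1 (adjusted p = 0.0513, edgeR).

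*Trim23*, which carries an ARF GTPase domain beside its RING, fell in the same list but at low counts. It had 14 and 21 counts in control, 2 and 1 in endotoxemic and 4 and 3 in LGK974 libraries. The ratio of control to endotoxemic depth-scaled counts was 8.13 (exact 95% counting interval 2.56 to 41.3), and that of control to LGK974 was 5.36 (2.35 to 14.3). In edgeR the adjusted p was 0.0268 and 0.0473. Both calls of *Trim23* were lost in DESeq2, without the filter on low counts and when any control or endotoxemic library was left out. The second was also lost without either LGK974 library, with the replicate block and with out-of-order rows left out or reassigned.

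The transcriptional co-regulators are nuclear TRIM proteins that carry a PHD finger and bromodomain. *Trim24* (chr6:37870811-37966296) binds nuclear receptors and is known in mouse liver as a restraint on retinoic acid receptor activity. It had 342 and 554 counts in control, 94 and 86 in endotoxemic and 322 and 487 in LGK974 libraries, or 34.0 ± 3.16, 9.71 ± 0.771 and 28.6 ± 6.12 CPM (SD, n = 2 each). The endotoxemic libraries were below the other 4, and the LGK974 and control libraries lay close together. *Trim24* fell by 1.81 on the log2 scale under LPS (SE 0.25, adjusted p = 0.000414, edgeR). It was the single member higher in LGK974 than in endotoxemic livers, by 1.56 (SE 0.25, adjusted p = 0.011, edgeR), a call lost without either endotoxemic library. Its difference between LGK974 and control was -0.25 (2 SE interval -0.71 to 0.21). *Trim28*, the co-repressor recruited by KRAB zinc finger proteins, had 375 and 635 counts in control, 249 and 288 in endotoxemic and 270 and 462 in LGK974 libraries, with a log2 difference of -0.40 (2 SE interval -0.9 to 0.1) under LPS. *Trim33*, a partner of SMAD proteins, had 146 and 159 counts, 84 and 135 counts, and 139 and 171 counts, with a difference of -0.02 (2 SE interval -0.63 to 0.59).

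The NHL-repeat members split. *Trim2*, a ligase of neurofilament light chain, had 369 and 617 counts in control, 152 and 133 in endotoxemic and 277 and 477 in LGK974 libraries. *Trim2* was lower under LPS by -1.28 (SE 0.26, adjusted p = 0.00416, edgeR), and its difference between LGK974 and endotoxemic livers was 0.79 (SE 0.26, adjusted p = 0.113), which passed without the filter on low counts, with the identical libraries kept separate and without LGK974 library 1. *Trim3*, its closest relative in the family, had 5 and 16 counts in control, 57 and 40 in endotoxemic and 90 and 95 in LGK974 libraries. *Trim3* was higher in both treated groups, by 2.73 (SE 0.50, adjusted p = 0.00224, edgeR) and 3.06 (SE 0.50, adjusted p = 0.00152, edgeR). Without control library 2 these values of *Trim3* were 3.47 and 3.80. *Trim32*, which is mutated in a limb-girdle muscular dystrophy, had 104 and 240 counts, 102 and 152 counts, and 212 and 120 counts, and its 2 SE interval under LPS was -0.68 to 0.89.

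Among the remaining members, *Trim47* and *Trim11* passed. *Trim47* (chr11:116105752-116127210) had 55 and 78 counts in control, 252 and 274 in endotoxemic and 218 and 158 in LGK974 libraries. It was higher under LPS by 2.47 (SE 0.29, adjusted p = 0.000166, edgeR) and in LGK974 against control by 1.41 (SE 0.29, adjusted p = 0.00506, edgeR), with the LGK974 libraries between the other groups. For LGK974 against endotoxemic the log2 difference of *Trim47* was -1.06 (SE 0.27, adjusted p = 0.0554, edgeR), which passed in DESeq2, without the filter on low counts, with the identical libraries kept separate and without LGK974 library 1. *Trim11*, which takes part in clearing misfolded nuclear proteins, had 222 and 289 counts in control, 451 and 454 in endotoxemic and 398 and 302 in LGK974 libraries. *Trim11* changed by 1.31 (SE 0.24, adjusted p = 0.00207, edgeR) under LPS and by -0.95 (SE 0.23, adjusted p = 0.0486, edgeR) in LGK974 against endotoxemic, the latter lost without any single control or endotoxemic library or LGK974 library 2. The tested members in which no comparison passed were *Trim8*, *Trim25*, *Trim26*, *Trim28*, *Trim32*, *Trim33*, *Trim35*, *Trim37*, *Trim41*, *Trim44*, *Trim45*, *Trim65* and *Trim68*, with log2 differences under LPS from -0.40 for *Trim28* to 0.79 for *Trim8*. *Trim45*, *Trim65* and *Trim68* had at most 15, 22 and 39 counts in any library, and the end of *Trim65* is overlapped by *Trim47* on the same strand, so their reads may be shared. The ends of *Trim14*, *Trim32* and *Trim41* are overlapped on the opposite strand by *Nans*, *Astn2* and *Rack1*.

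Genes that work beside the TRIM family were counted from lists, and where a list held rows whose symbol was out of genomic order those rows were left out, an alternative chosen after seeing the data. The shares of all genes to read these counts against are 20.4% higher and 23.0% lower under LPS, and 2.82% lower in LGK974 against endotoxemic. Of 10 tested E2 enzymes used by RING ligases, 1 was higher under LPS, which is under the share of all genes, namely *Ube2v2*, with a log2 fold change of 0.90. Of 17 tested genes of nucleic acid sensing and its partners, 12 were higher under LPS, with a median of 1.70. Between LGK974 and endotoxemic livers 1 of these 17 was lower, the RIG-I gene *Ddx58* (-0.94, adjusted p = 0.0288, edgeR). Of 19 tested interferon-response genes, 19 were higher under LPS, and 6 were lower in LGK974 against endotoxemic, among them *Irf1* (-2.33), *Ifit1* (-1.78) and *Igtp* (-2.40) on the log2 scale. The summed level of the interferon-response genes was 323 and 316 CPM in control, 4930 and 4750 CPM in endotoxemic, and 3140 and 1110 CPM in LGK974 libraries. LGK974 library 1 also had more cluster expression than LGK974 library 2. Of 8 tested genes of interferons and their receptors, 4 were higher under LPS and 2 were lower in LGK974 against endotoxemic. *Ifng*, the type II interferon, was higher under LPS (10.17, adjusted p = 0.000148, edgeR) and lower in LGK974 against endotoxemic (-7.17, adjusted p = 0.00399, edgeR), and *Ifnb1* was at 0 in all libraries. Of the 3 tested TRIM genes with other names that were in order, 1 was higher under LPS, with a median of -0.02, and 1 was lower in LGK974 against endotoxemic. In both cases this was *Pml*, which changed by 1.21 (adjusted p = 0.00388, edgeR) and -1.34 (adjusted p = 0.0191, edgeR).

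**Figure D5:**
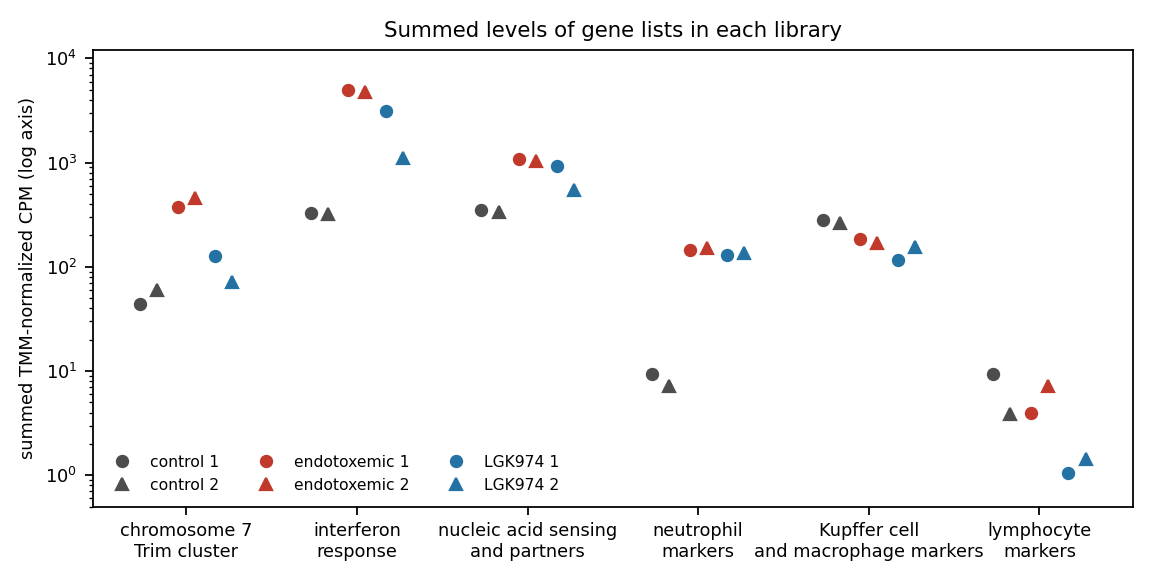
Summed level of the chromosome 7 cluster beside those of the interferon-response genes, the nucleic acid sensing genes and the neutrophil, Kupffer cell and lymphocyte marker lists, in CPM on a log axis, for each of the 6 distinct libraries, with the out-of-order rows of these lists included. The cluster and interferon-response sums are highest in the endotoxemic libraries.

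Marker lists of the cell types that whole liver can hold are also given over the rows in genomic order. Some of them differed between groups, and over all genes 20.4% were higher and 23.0% lower under LPS. Hepatocyte markers summed to 106000 and 73300 CPM in control, 47400 and 30400 CPM in endotoxemic and 35600 and 32800 CPM in LGK974 libraries, with 5 of 7 lower under LPS. Neutrophil markers, of which 3 rows were in order, summed to 1.76 and 1.90 CPM, 16.0 and 18.7 CPM, and 11.9 and 11.2 CPM, with 2 of 2 tested higher under LPS. Kupffer cell and macrophage markers summed to 105 and 107 CPM, 149 and 135 CPM, and 96.8 and 130 CPM, with 1 of 6 higher and 2 lower under LPS, near the shares of all genes. With the 2 out-of-order rows of that list included, its sums ran the other way under LPS, from 280 and 262 CPM in control to 184 and 169 CPM in endotoxemic libraries. Erythroid markers summed to 2740 and 2960 CPM in control and 6570 and 7710 CPM in endotoxemic libraries, with 5 of 6 higher, and to 4170 and 2710 CPM in the LGK974 libraries. Lymphocyte markers summed to 9.47 and 3.86 CPM in control, 3.93 and 7.14 CPM in endotoxemic and 1.06 and 1.42 CPM in LGK974 libraries, the lowest of the 6. Of 4 tested lymphocyte markers, 0 passed in any comparison. Skeletal muscle markers summed to 5.38 and 3.79 CPM, 0 and 1.07 CPM, and 2.11 and 3.72 CPM, with 2 of 3 tested lower under LPS and *Actn3* and *Myh4* at 0 throughout. The part of these shifts in the TRIM values was not tested.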

How the data were processed

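Libraries of liver RNA were made with the QuantSeq 3′ kit. For each of 8 libraries the authors deposited an unnormalized, whole-number read count per gene. The submitters' processing notes name Bowtie2, edgeR and mm10, and the counting program is not given in the sources used here. No column of comparisons was present.

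Libraries with identical counts were counted once. The tests used edgeR 4.0.16 under R 4.3.3. Genes were kept by filterByExpr, normalized by TMM, and fitted in 1 quasi-likelihood model over the 3 groups. P-values were Benjamini-Hochberg adjusted over all 12701 genes tested, with a threshold of 0.05, and the common biological coefficient of variation was 0.239. The procedure was tested on simulated data. Alternatives were DESeq2 1.42.0, RLE scaling, no filter, at least 10 counts in every library, the identical libraries kept separate, a replicate block, each library left out, and out-of-order rows left out or reassigned. A row was out of order when its annotated gene lay over 2 Mb from both neighbouring ordered genes and outside the longest ordered set of rows.

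Named with values in every library were the members past the threshold in at least 1 comparison and the interferon-linked members, and the rest were given by range or highest count, except that *Trim28*, *Trim32* and *Trim33* were added with their values beside the relatives in their groups, after these were seen. Other lists were given by counts with up to 4 examples. The members and lists were chosen with earlier results of these data known. Gene positions came from GENCODE vM21 (GRCm38). A planned description of protein sequences was not made, because no protein table was used here.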

Additional observations from a re-analysis of the deposited data

How the results depend on the processing

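The number of TRIM genes higher in endotoxemic than in control livers stayed at 15 under most alternatives. It was 11 with at least 10 counts in every library, where *Trim13*, *Trim3*, *Trim30b* and *Trim6* were not tested. It was 16 without the filter on low counts, where *Trim8* was gained. With the identical libraries kept separate it was 18, where *Trim8*, *Trim35* and *Trim44* were gained. The number lower in that comparison ranged from 2 to 4 when single libraries were left out. For LGK974 against endotoxemic, the number higher was 2 without the filter on low counts, 2 with the identical libraries kept separate, and 0 to 2 with single libraries left out, and the number lower ranged from 0 to 10 with single libraries left out. For LGK974 against control, the number higher ranged from 3 to 10 with single libraries left out. The single lower gene there, *Trim23*, was lost and the count was 0 without the filter, by DESeq2, and with out-of-order rows left out or reassigned. With at least 10 counts in every library *Trim23* was not tested and the count was also 0. That count was 3 with the identical libraries kept separate and 0 to 4 with single libraries left out. Fold changes near 0 changed sign when single libraries were left out, ranging from -0.47 to 0.40 for *Trim12c*, -0.20 to 0.35 for *Trim21* and -0.79 to 0.03 for *Trim56* in LGK974 against control, from -1.16 to 0.14 for *Trim13* and -0.04 to 0.19 for *Trim25* in LGK974 against endotoxemic, and from -0.06 to 0.27 for *Trim26* in endotoxemic against control. The cause was not tested. Among the members past the threshold in any comparison, differences that did not pass but did under at least 1 alternative were those of *Trim2*, *Trim6*, *Trim30b*, *Trim39* and *Trim47* in LGK974 against endotoxemic and those of *Trim2*, *Trim6*, *Trim11*, *Trim12a*, *Trim14*, *Trim30b*, *Trim34a* and *Trim56* in LGK974 against control.

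Nothing in the labels says whether replicate numbers shared between groups pair the samples. In their deviations from the group means, same-numbered libraries correlated by 0.214 for endotoxemic and control. The values were 0.064 for LGK974 and endotoxemic and -0.018 for LGK974 and control. With 2 libraries per group, these values cannot settle whether same-numbered libraries share a batch. With the replicate block, the number lower in LGK974 against control was 0, and no other call of a TRIM gene changed. Depth limits the 35 members that did not pass the filter, which had at most 17 counts in any library. Without the filter 55 members were tested, and none of those added passed, which at such counts does not exclude differences.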
